A study of Mus musculus with 15 samples.

Results

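The genes described here are 44 of the 8446 rows of the expression table, those whose symbols begin as the genes of major histocompatibility complex (MHC) class I presentation and of the interferon response do (Tap, Irf, Stat, Oas, Ifi, Gbp and Isg names, with B2m and Bst2). They were followed over 15 single cells, numbered 1 to 15. By their known roles 5 belong to class I presentation, 36 to the interferon response, and 3 share a name with the second set but not its function (Irf2bp2, Irf2bpl and Isg20l2). The name pattern also covers the class I heavy chains, whose symbols start with H2-. No such row was in the table used, so the heavy chains were not analysed here and the class I side rests on the light chain and the peptide-loading machinery.

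Each library is 1 Tomato+ cell sorted from digested inguinal white fat and picked under a fluorescence microscope. For all cells the fat was digested with collagenase at 2 mg per ml for 1 h at 37 °C. The donors were adult C57BL/6 mice of genotype Prrx1-CreERT;Tomato, in which tamoxifen lets a Cre recombinase driven by the mesenchymal gene Prrx1 switch on a red reporter. All 15 cells share this genotype and the tamoxifen (2 mg per 30 g mouse, once a day for 3 days), and there is no untreated group. The labels name no animal, so the group counts as 1 sample, and cells are described without p-values. Values are log2(FPKM + 1), where FPKM is fragments scaled to transcript length and to the size of the library, and a gene was called detected at 1 FPKM or more. All cells had been brought to 1 distribution, so each holds 4369 detected rows and a top value of 13.69, and read depth is unknown. Between 930 and 1974 rows stood at the lowest value of their cell. All 11 listed markers of stromal progenitors were detected in at least 8 cells, against 46.8% of all rows. Of the 11, 8 reached 1 FPKM in every cell, against 12.1% of all rows.

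MHC class I molecules show peptides from inside the cell to T cells. Peptides cut by the proteasome are carried into the endoplasmic reticulum by the Tap1 and Tap2 transporter, held near the heavy chain by tapasin, and bound by a heavy chain paired with beta-2 microglobulin. Interferons act through cell-surface receptors, Janus kinases and the transcription factors they activate to raise a large set of antiviral genes, and they raise class I genes as well. Stromal cells of many tissues answer interferons in this way.

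Taken as a set the 44 genes stood close to the rest of the table. Of the 44 genes, 22 were detected in at least 8 cells, against 46.8% of all rows. All 15 cells detected 7 of them (15.9%, against 12.1% of all rows), and 20 (45.5%, against 39.3%) were detected in at most 5 cells. At 5 FPKM 17 of the 44 genes still reached 8 cells, against 32.6% of all rows. The median of the gene medians was 0.98 for the 44 genes, 1.32 for the 5 class I genes, 1.14 for the 36 interferon genes and 0.79 for all rows. Described by role, with roles assigned after the rows were seen, the genes form a broad layer and a sparse layer. B2m and all Ifitm, p200 and Ifi27 family genes were detected in at least 8 cells. All 6 GTPase genes and 7 of the 10 sensor and effector genes were detected in at most 5 cells. Isg20 and Bst2, also in the effector group, were detected in 12 cells each.

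**Figure D1:**
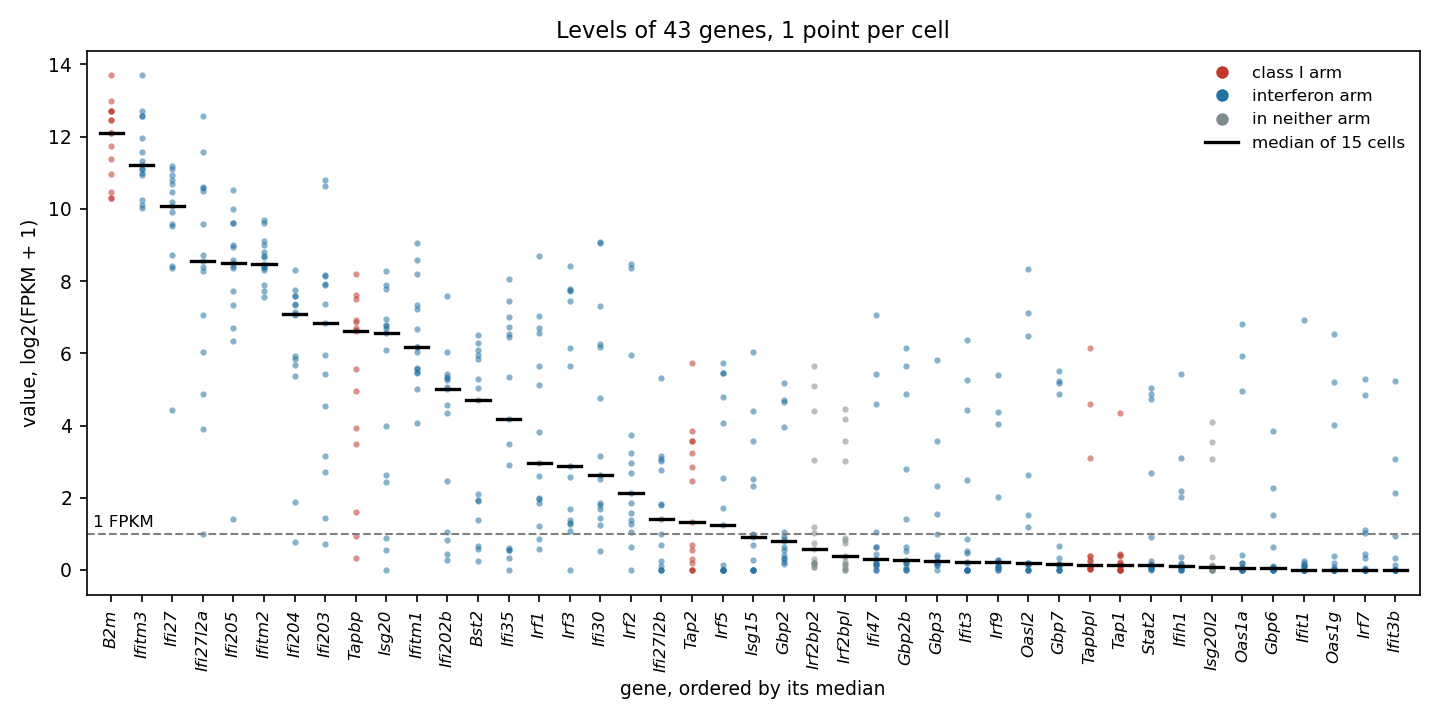
Level of 43 of the 44 genes as log2(FPKM + 1), 1 point per cell and a black bar at the median of 15 cells, ordered by median, with the class I genes in red, the interferon genes in blue and 3 further name matches in grey. B2m, Ifitm3 and Ifi27 have the highest medians (12.09, 11.22 and 10.07), while genes at the right have medians near 0 with single cells above 5.

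B2m, the class I light chain, was the most abundant of the 44 genes by median. The gene (ENSMUSG00000060802) lies on the plus strand of chromosome 2 from 122147686 to 122153083 in GRCm38. In cells 1 to 15 in turn it stood at 12.72, 11.75, 12.98, 12.09, 12.09, 13.69, 10.96, 12.72, 11.37, 10.29, 10.29, 12.47, 10.47, 12.47 and 12.72. Cells 10, 11, 13 and 7 were lowest and cell 6 highest. Even at its lowest B2m was the 77th row of its cell, so every cell carried it among its most abundant transcripts. Patl2 overlaps it on the opposite strand, and no source used here says whether strand was used in counting.

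The loading machinery was far less even than its light chain. Tapbp encodes tapasin, which bridges the heavy chain and the transporter, and was detected in 13 of 15 cells (86.7%, 95% Clopper-Pearson interval 59.5% to 98.3%, counting error only). Its values in cells 1 to 15 were 7.62, 8.20, 1.62, 6.60, 6.92, 6.66, 6.70, 4.97, 0.93, 7.50, 3.49, 5.57, 0.34, 6.88 and 3.93. Cells 13, 9 and 3 stood apart at the low end, while 10 cells were above 4.9. Tap2, a subunit of the peptide transporter, was detected in 8 cells, from 0.00 in cell 6 through a median of 1.32 to 5.72 in cell 10.

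Tap1, the partner of Tap2 in the transporter, was detected in 1 cell (6.67%, interval 0.17% to 31.9%). It stood at 4.35 in cell 9, and at 0.45, 0.14, 0.00, 0.41, 0.13, 0.00, 0.00 and 0.20 in cells 1 to 8 and 0.22, 0.00, 0.00, 0.09, 0.40 and 0.15 in cells 10 to 15. Cell 9 had Tap2 at 0.00, so no cell carried both transporter subunits at 1 FPKM. Tapbpl, a tapasin-related peptide editor, was detected in cells 10 (6.16), 14 (4.60) and 2 (3.10). Tap1 and Tap2 have longest annotated transcripts of 3911 and 3442 nt, against 860 nt for B2m. The kit primes from the 3′ end while FPKM uses transcript length, and the part of length in these levels was not tested. A low value of Tap1 cannot be read as absence.

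Genes that feed the class I pathway were described from a separate list of 15, of which 12 had a row. Of these 9 were broad (8 cells or more) and 6 present in every cell, among them the proteasome activator subunits Psme1 (median 7.72) and Psme2 (7.54) and the chaperones Hspa5 (8.22) and Calr (6.76). The interferon-inducible proteasome subunits were patchier. Psmb8 was detected in 9 cells, highest in cell 3 (7.90), Psmb9 in 9, highest in cell 12 (7.29), and Psmb10 in 11, highest in cell 2 (7.53). Nlrc5, the transactivator of class I genes, was detected in cells 4 (6.12) and 12 (2.77) only.

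On the interferon side, the Ifitm genes were present in every cell. They encode small membrane proteins that hinder virus entry, and Ifitm1, Ifitm2 and Ifitm3 lie together on chromosome 7 between 140954837 and 141010770. Ifitm3 stood at 11.58, 11.34, 12.72, 10.03, 12.56, 11.11, 11.96, 12.56, 11.11, 11.002, 10.26, 10.11, 11.22, 13.69 and 10.93 in cells 1 to 15. It never fell below the 100th row of a cell, with cell 14 highest and cells 4, 12 and 11 lowest. Ifitm2 ran from 7.56 in cell 13 through a median of 8.47 to 9.69 in cell 8, a range narrower than in 97% of the 200 rows nearest to it in median. Ifitm1 ran from 4.08 in cell 4 through 6.16 to 9.05 in cell 8. Ifitm2 shares 55.5% of its 31-base words with other annotated genes, so its own share of reads is uncertain.

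The Ifi27 family encodes small hydrophobic proteins of mitochondria and the nuclear envelope, and its members on chromosome 12 did not move as 1 group. Ifi27 ran from 4.43 in cell 5 through a median of 10.07 to 11.20 in cell 3. Ifi27l2a stood at 10.58, 7.06, 4.87, 6.03, 8.29, 10.61, 12.56, 10.50, 3.90, 11.58, 9.57, 8.40, 1.01, 8.72 and 8.55 in cells 1 to 15. Its spread was wider than that of 98% of the 200 rows nearest in median, with cell 7 at the top and cells 13, 9 and 3 at the bottom. Ifi27l2b was detected in 8 cells, highest in cell 10 (5.31). Over the 15 cells Ifi27l2a and Ifi27l2b rose and fell together (Spearman's rho 0.85), while Ifi27 ran against them (rho −0.39 and −0.62). These are descriptions over cells that share a table with 1 distribution. Ifi27l2a shares 6.01% of its 31-base words with Ifi27l2b.

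The p200 or HIN-200 genes, a family of nuclear DNA-binding proteins in a cluster on chromosome 1, were broad, with all 4 at 1 FPKM or more in 12 of 15 cells. Ifi205 ran from 1.42 through a median of 8.49 to 10.52, Ifi204 from 0.77 through 7.08 to 8.30, and Ifi202b from 0.29 through 5.02 to 7.58, each lowest in cell 13 and highest in cell 10. Ifi203 stood at 8.18, 6.83, 2.72, 3.15, 10.63, 5.94, 7.88, 10.81, 1.45, 5.44, 8.15, 7.38, 0.72, 4.54 and 7.92 in cells 1 to 15, again lowest in cell 13. All 4 members thus had their lowest value in cell 13, where 1 of 4 reached 1 FPKM. Low values were found in other cells too, such as Ifi204 (1.89) in cell 9 and Ifi202b in cells 12 (0.45), 2 (0.83) and 4 (1.06). Cell 13 also detected the fewest stromal markers (9 of 11), with Pdgfra at 0.20 and Mmp2 at 0.73, although the stromal markers Vim (12.02) and Pdgfrb (7.66) were highest there. Of 6 mural markers it detected 5, among them Higd1b (10.68) and Kcnj8 (9.43), with Acta2 at 0.45. Cell 5 detected all 6 mural markers and had Ifi203 at 10.63, with Ifi205 (6.33), Ifi204 (5.36) and Ifi202b (2.47) below their medians. The part of cell identity in these low values was not tested. Ifi203 overlaps Mndal on the same strand, and Ifi204, Ifi205 and Ifi203 share 34.0%, 22.1% and 21.6% of their words with other genes, so their split is uncertain.

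**Figure D2:**
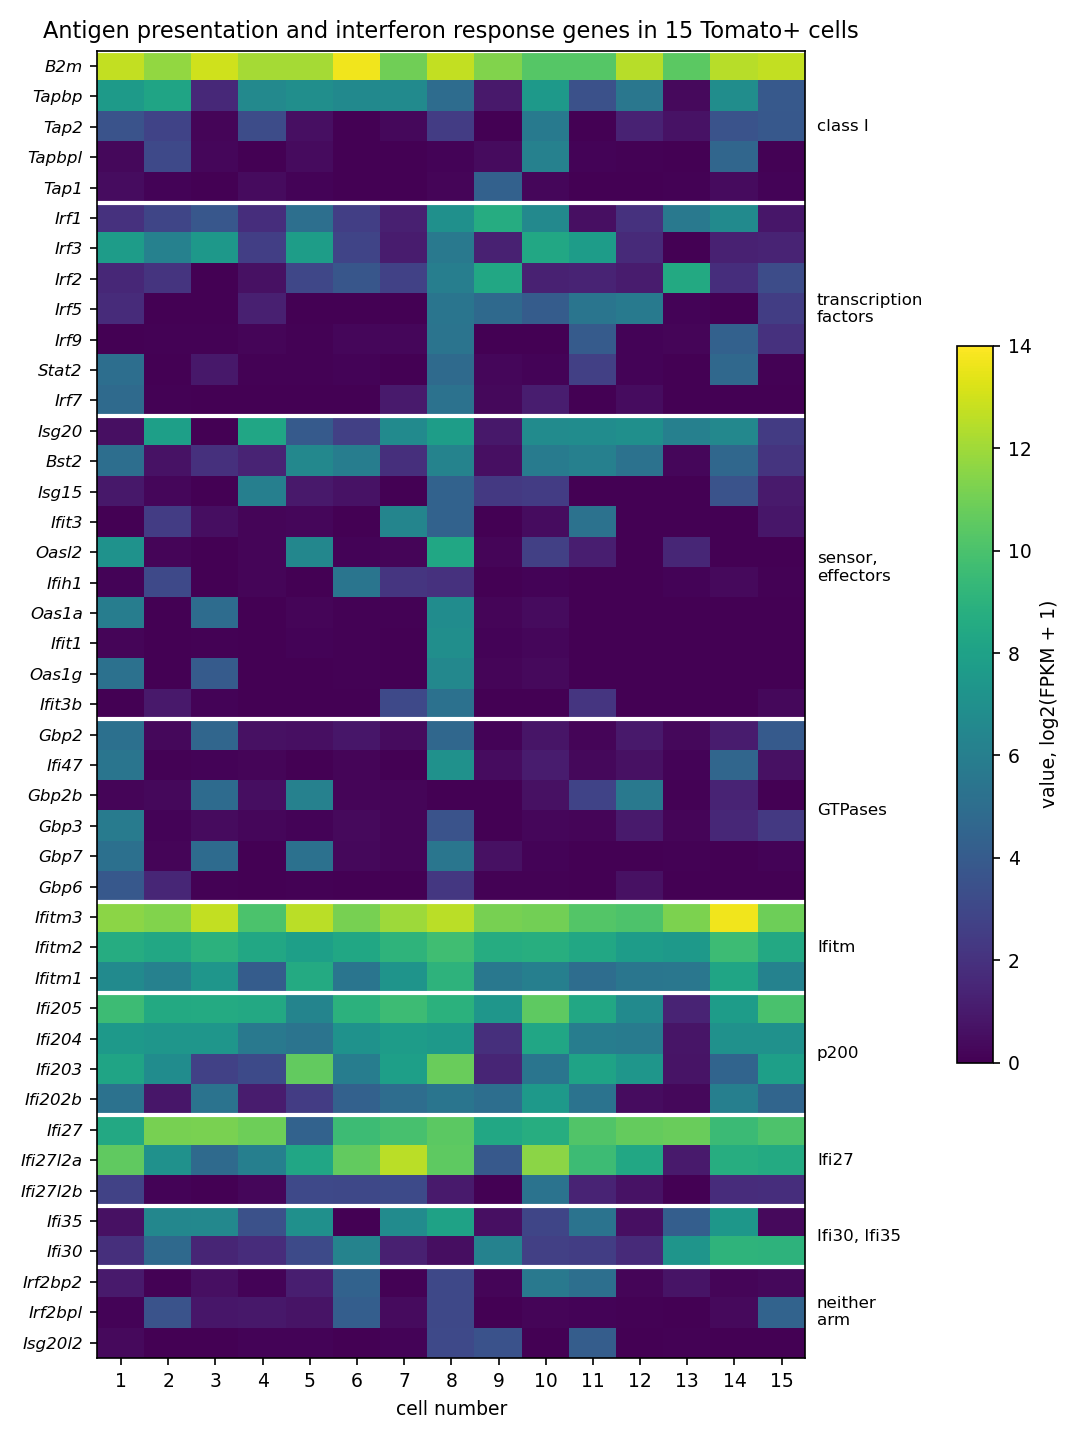
Value of 43 of the 44 genes (rows, grouped by role) in each of 15 cells (columns), coloured by log2(FPKM + 1) from 0 to 14. Column 8 is above 1 FPKM in all 10 sensor and effector rows and 5 of 6 GTPase rows, column 1 in 4 and 5 of them, and the p200 block is dark in column 13, where 1 of 4 genes reaches 1 FPKM.

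The transcription factors of the pathway were the next layer. Of the 8, 5 were detected in at least 8 cells (62.5%, against 46.8% of all rows). No factor was detected in all 15 cells, against 12.1% of all rows. Irf3, the factor that sensors activate before any interferon is made, stood at 7.76, 6.14, 7.45, 2.57, 7.79, 2.89, 1.09, 5.64, 1.26, 8.41, 7.71, 1.68, 0.00, 1.30 and 1.37 in cells 1 to 15. Cells 1, 2, 3, 5, 8, 10 and 11 were at 5.64 or more, and the others at 2.89 or less. Irf1, which drives class I genes, stood at 1.99, 2.95, 3.82, 1.84, 5.12, 2.59, 1.23, 7.03, 8.69, 6.57, 0.57, 1.98, 5.65, 6.71 and 0.85. Cells 9 and 8 were highest and cells 11 and 15 fell short of 1 FPKM. Over the 15 cells Irf1 had a Spearman's rho of −0.01 with B2m, −0.04 with Tapbp and −0.01 with Tap2. Irf2, which can oppose Irf1, was detected in 13 cells and reached 8.49 in cell 13 and 8.37 in cell 9, against 5.97 or less elsewhere. Irf3 overlaps Bcl2l12 on the opposite strand.

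Stat2 and Irf9, which act together in the response to type I interferon, were sparser. Stat2 was detected in cells 1 (5.05), 8 (4.86), 14 (4.72) and 11 (2.68), and Irf9 in cells 8 (5.39), 14 (4.36), 11 (4.03) and 15 (2.02). Cells 8, 11 and 14 thus detected both. Irf7, the factor that amplifies type I interferon output, had 2 cells well above the rest, 8 (5.29) and 1 (4.84), with 1.10 the next value. Irf5 was detected in 8 cells, highest in cell 12 (5.72).

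Signalling genes upstream of these factors were uneven. Of 13 receptor and signalling genes with a row, 8 were detected in at least 8 cells, against 46.8% of all rows, and 5 in at most 5 cells (38.5%, against 39.3%). The receptor subunits Ifngr1 (lowest 3.68, median 7.25) and Ifnar2 (1.15 and 5.98) and the kinase Jak1 (1.69 and 6.30) were detected in all 15 cells. Ifnar1, the other type I receptor chain, was detected in 5 cells, highest in cell 14 (3.85). No gene of the interferon ligand list (7 genes) had a row, and ligands were not analysed here. Of 7 sensor and adaptor genes with a row Tbk1 alone was detected in at least 8 cells (14.3%, against 46.8% of all rows).

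Most genes of the sensor and effector group belonged to the sparse layer. Of the 10 genes in the sensor and effector group, 7 were detected in at most 5 cells (70.0%, against 39.3% of all rows). All 10 were detected in cell 8, against 1 to 5 in each other cell, while each cell detected 51.7% of all rows. Ifit1, which binds foreign RNA caps, was detected in cell 8 alone (6.67% of cells, interval 0.17% to 31.9%). It stood there at 6.93, and in cells 1 to 7 at 0.21, 0.00, 0.09, 0.00, 0.13, 0.10 and 0.00. Cells 9 and 10 had 0.15 and 0.24, and cells 11 to 15 each had 0.00.

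The oligoadenylate synthetases, which sense double-stranded RNA, had their highest values in the same cell. Oas1a (chromosome 5, 120896256 to 120907521, minus strand) was detected in cells 8 (6.82), 1 (5.94) and 3 (4.96). Its other values were 0.03 in cell 2, 0.00, 0.20, 0.07 and 0.10 in cells 4 to 7, 0.20 and 0.41 in cells 9 and 10, and 0.00 in cells 11 to 15. Oas1g had the same 3 cells in the same order (6.53, 5.20 and 4.02). It shares 54.6% of its words with Oas1a, so this likeness cannot be told apart from shared reads. Oasl2, which shares 1.23% of its words with other genes, stood at 7.12, 0.17, 0.00, 0.17, 6.49, 0.14, 0.20, 8.34, 0.19, 2.64, 1.18, 0.00, 1.52, 0.00 and 0.00 in cells 1 to 15. Cells 8, 1 and 5 were far above the others, a spread wider than that of 97% of the 200 rows nearest in median.

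Other effectors peaked elsewhere. Ifit3, a partner of Ifit1, stood at 0.00, 2.48, 0.52, 0.20, 0.23, 0.00, 6.37, 4.42, 0.00, 0.47, 5.27, 0.00, 0.00, 0.00 and 0.86 in cells 1 to 15, highest in cells 7 and 11. Its near copy Ifit3b was highest in cell 8 (5.23), then cells 7 (3.07) and 11 (2.14), and the pair share over 54% of words. Isg15, a ubiquitin-like modifier, stood at 0.92, 0.27, 0.00, 6.04, 0.97, 0.68, 0.00, 4.41, 2.32, 2.52, 0.00, 0.00, 0.00, 3.58 and 0.99, highest in cell 4 and then cells 8 and 14. Bst2 encodes tetherin, which holds budding virus at the membrane. Its values were 5.05, 0.67, 1.94, 1.38, 6.51, 5.96, 1.90, 6.29, 0.58, 5.83, 6.09, 5.28, 0.24, 4.70 and 2.11, so that it was above 4.6 in 8 cells and below 2.2 in the other 7. The exonuclease Isg20 was broad, detected in 12 cells with a median of 6.55, and the RNA sensor Ifih1 was highest in cell 6 (5.42).

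The guanylate-binding proteins and the related GTPase Ifi47, which act on vacuoles that hold microbes, were detected in 3 to 5 cells each. Over all rows 39.3% were detected in at most 5 cells, and each cell detected 51.7%. Gbp2 led in cells 1 (5.17), 8 (4.70), 3 (4.64) and 15 (3.95), and Gbp3 in cells 1 (5.82) and 8 (3.57). Gbp7 was detected in cells 8 (5.51), 5 (5.24), 1 (5.18) and 3 (4.88). Gbp6 was highest in cell 1 (3.85), but 74.2% of its words occur in other genes. Ifi47 was detected in cells 8 (7.06), 1 (5.44), 14 (4.61) and 10 (1.06). Gbp2b went another way, with cells 5 (6.14), 12 (5.64) and 3 (4.89) at the top and 0.02 in cell 8. Cells 1 and 8 each detected 5 of these 6 genes, cell 14 detected 4, and cells 4, 6, 7, 9 and 13 detected none of them at 1 FPKM.

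Ifi30 and Ifi35 complete the interferon set. Ifi30, a lysosomal thiol reductase that prepares proteins for class II presentation, stood at 1.86, 4.77, 1.44, 1.80, 3.15, 6.25, 1.25, 0.53, 6.19, 2.64, 2.52, 1.68, 7.30, 9.09 and 9.06 in cells 1 to 15. Cells 14, 15 and 13 were highest and cell 8 lowest. Ifi35 was detected in 10 cells with a median of 4.18, highest in cell 8 (8.06) and cell 14 (7.44). The 3 genes that carry the names without the function were sparse: Irf2bp2 was detected in 6 cells, Irf2bpl in 4 and Isg20l2 in 3.

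Counted by cell, cell 8 detected the most interferon genes. It held 33 of 36, where 51.7% of all rows were detected in this and every cell, followed by cell 1 with 27, cell 14 with 25 and cells 10 and 11 with 23 each. Cell 13 held the fewest (13), then cell 9 (15). Cell 8 also detected all 3 name matches without the function, Irf2bp2, Irf2bpl and Isg20l2. The 3 interferon genes below 1 FPKM in it were Gbp2b, Ifi27l2b (0.99) and Ifi30. Of the 17 interferon genes detected in at most 6 cells, cell 8 detected 16, cell 1 detected 10, cell 14 detected 7 and cell 11 detected 6, and the other cells 1 to 5. Among all 3917 rows detected in 1 to 6 cells, 26.4% were detected in cell 8 and 24.5% in cell 1.

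Cell 8 also held the highest value of 13 of the 36 genes, where 4.08% of all rows were highest in it. Cell 1 held 5 (7.27% of all rows) and cell 10 held 5 (10.4%), among them Ifi205, Ifi204 and Ifi202b. The cell was noticed from these same values, so the counts describe it and test nothing. Cell 8 had the smallest number of rows at the lowest value (930), while cell 1 had 1859 and cell 14 had 1877, above the median of 1385. With the 6 members left out that share over 50% of their words with another gene, cell 8 detected 27 of the remaining interferon genes, and 31 of the 36 reached 5 FPKM in it.

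**Figure D3:**
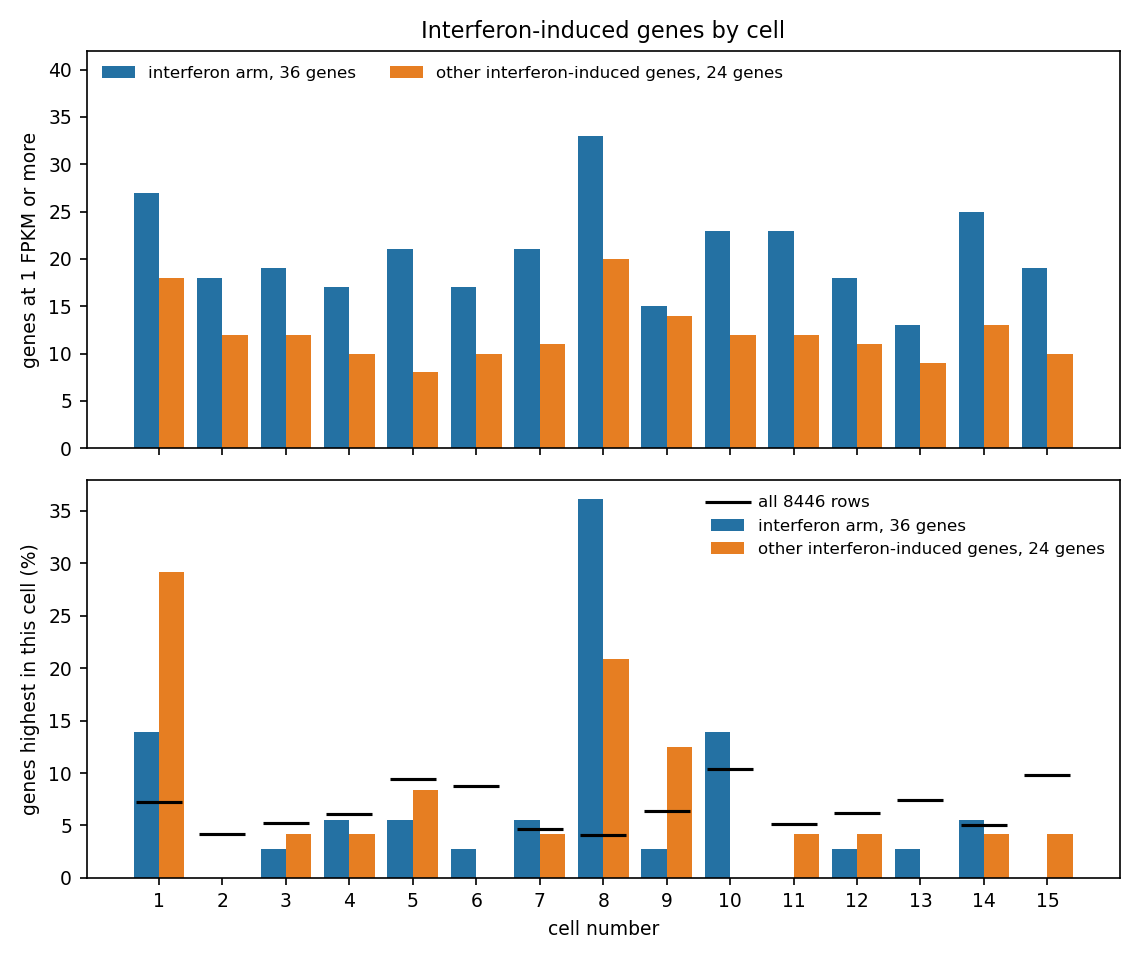
Upper bars give the number of genes at 1 FPKM or more in each cell, for the 36 interferon genes (blue) and 24 other interferon-induced genes (orange). Lower bars give the percentage of each set whose highest value lay in that cell, with a black line for all 8446 rows. Cell 8 detects 33 and 20 genes and cell 1 detects 27 and 18, while each cell detects 51.7% of all rows.

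Interferon-induced genes outside the name pattern were looked up in the same cells. Of the 40 listed 26 had a row, and 24 remain when the proteasome subunits Psmb8 and Psmb9 are set aside. Cell 8 detected 20 of the 24, cell 1 detected 18, cells 9 and 14 detected 14 and 13, and the other cells 8 to 12. Each cell detected 51.7% of all rows. The list was chosen with earlier results of these data known, so its counts describe the cells and test nothing. Cell 1 held the highest value of 7 (29.2%, against 7.27% of all rows) and cell 8 of 5 (20.8%, against 4.08%). Rtp4 stood at 8.04 in cell 8 against 3.96 or less elsewhere, and Iigp1, a GTPase of the same class as Ifi47, led in cells 8 (7.62), 12 (6.09) and 15 (5.51). Igtp, another such GTPase, stood at 8.05 in cell 1 and 6.82 in cell 8. Usp18, which removes Isg15 from proteins and damps the receptor, was high in cells 8 (7.32), 1 (7.19) and 13 (5.42), with 1.58 the next value.

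The list did not move as a block. Samhd1, which depletes nucleotides, stood at 7.24 in cell 1 and 0.62 in cell 8, and the kinase Eif2ak2 at 6.52 and 3.20 in the same order. Parp9 was at 4.82 in cell 1 and 0.00 in cell 8. Cxcl10, a chemokine that interferons induce, was highest in cells 12 (8.42), 13 (8.02) and 15 (6.47), with 0.00 in cell 1 and 1.00 in cell 8.

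Immune markers beside these cells were thin, since 2 of the 15 listed had a row. The macrophage receptor Csf1r stood at 0.00 in cell 8, 3.81 in cell 1 and 6.39 in cell 2, and Cd14 was at most 0.20 in any cell. Ptprc and the other 12 immune markers were not analysed here. Cells 1 and 8 each detected all 11 stromal markers, as did every other cell but 3, 13 and 15. The endothelial marker Tek stood at 5.04 in cell 1 and at most 0.37 elsewhere. Esam, on the endothelial and mural lists, stood at 0.29 in cell 1.

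Promoters of the 44 genes, broad and sparse, were read for the letters that interferon factors recognise. The promoters were taken as RefSeq gives them for GRCm38.p6, from 250 bases before to 50 after each gene start. The element searched was GAAA, any 2 bases, then GAAA, the core of the interferon-stimulated response element, on both strands with overlapping matches counted. Of the 44 genes 36 had a promoter in the table, and the 3 Ifi27 family genes had none. Of the 36, 19 (52.8%) held the element, against 3.99% of 27025 genes. It was found in 8 of 10 sensor and effector genes, 4 of 5 GTPase genes, 2 of 3 Ifitm genes, 2 of 3 p200 genes, 2 of 7 transcription factors and 1 of 3 class I genes. Neither Ifi30 nor Ifi35 held it, nor did the 3 name matches without the function. The shorter STAT element TTCNNNGAA was found in 9 of the 36 (25.0%, against 9.55% of genes), among them Irf1 and Gbp7.

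The stretches below show the element in a class I gene and a p200 gene present in all cells. Bst2, detected in 12 cells, follows, and then genes of the sparse layer. Capitals mark each match. All are written 5′ to 3′ on the gene's own strand and end before the gene start, by RefSeq and by GENCODE alike. A pair of TTTC runs is the same element on the other strand.
B2m, chr2:122147528-122147577, plus strand: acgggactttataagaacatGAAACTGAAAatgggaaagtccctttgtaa
Ifi205, chr1:174031860-174031909, minus strand: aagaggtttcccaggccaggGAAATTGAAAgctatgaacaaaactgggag
Bst2, chr8:71537567-71537622, minus strand: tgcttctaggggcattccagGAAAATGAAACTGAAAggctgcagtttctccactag
Ifit1, chr19:34640765-34640833, plus strand: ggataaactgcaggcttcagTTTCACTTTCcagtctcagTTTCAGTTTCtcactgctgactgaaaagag
Ifit3, chr19:34583353-34583436, plus strand: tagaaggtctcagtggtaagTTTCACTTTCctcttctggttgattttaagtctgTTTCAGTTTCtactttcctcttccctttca
Isg15, chr4:156200855-156200916, minus strand: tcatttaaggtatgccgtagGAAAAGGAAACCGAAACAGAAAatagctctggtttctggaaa
Oas1a, chr5:120907526-120907565, minus strand: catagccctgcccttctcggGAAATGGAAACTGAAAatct
Gbp7, chr3:142530263-142530312, plus strand: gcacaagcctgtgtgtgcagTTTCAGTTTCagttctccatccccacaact
Matches thus stand upstream of B2m, detected in 15 cells, and of Ifit1, detected in 1. The Ifit3 stretch recurs unchanged at Ifit3b, and the one of Oas1g is contained in that of Oas1a. Isg15 has 3 overlapping matches, and Oas1a and Bst2 have 2 each. A match is a string of letters and no evidence of binding, and the 2 sensor and effector genes without one lack it in this window.

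Whether the class I and interferon genes went together was read from Spearman's rho over the 15 cells, for genes detected in at least 5 cells. That left 3 class I genes and 24 interferon genes. The mean rho was 0.15 over the 72 pairs of a class I gene with an interferon gene, 0.12 over the 276 pairs of interferon genes, and 0.17 over the 3 class I pairs. The class I value rests on 1 pair, Tapbp and Tap2 (0.49), since the median of the 3 was 0.02, and it turned to −0.038 without cells 1, 11 and 14. Over all 17049880 pairs of the 5840 rows with the same filter the mean was 0.0015. Among pairs of interferon genes 9.78% reached a rho of 0.5, against 3.26% of all pairs. The pairs share cells and library preparation, and no p-value applies.

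Scored as the mean z-score of its genes in each cell, the class I side had a rho of 0.34 and Pearson's r of 0.50 with the interferon side over 15 cells. Without cells 13 and 11, the farthest from the median class I score, they were 0.23 and 0.39. B2m alone had a rho of 0.14 and r of 0.23 with the interferon score, and 0.45 and 0.44 without cells 10 and 11. Cell 13 was lowest on both scores (−1.31 and −0.65), and cell 9 was low on both (−1.08 and −0.39). Cell 1 was highest in class I (0.87) and cell 8 in interferon genes (0.94). Cell 4 had a class I score of 0.48 with an interferon score of −0.43. The interferon score had a rho of −0.04 with the number of rows at the lowest value, and the class I score 0.07. Without the 2 cells farthest from the median score these were 0.19 and 0.31.

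**Figure D4:**
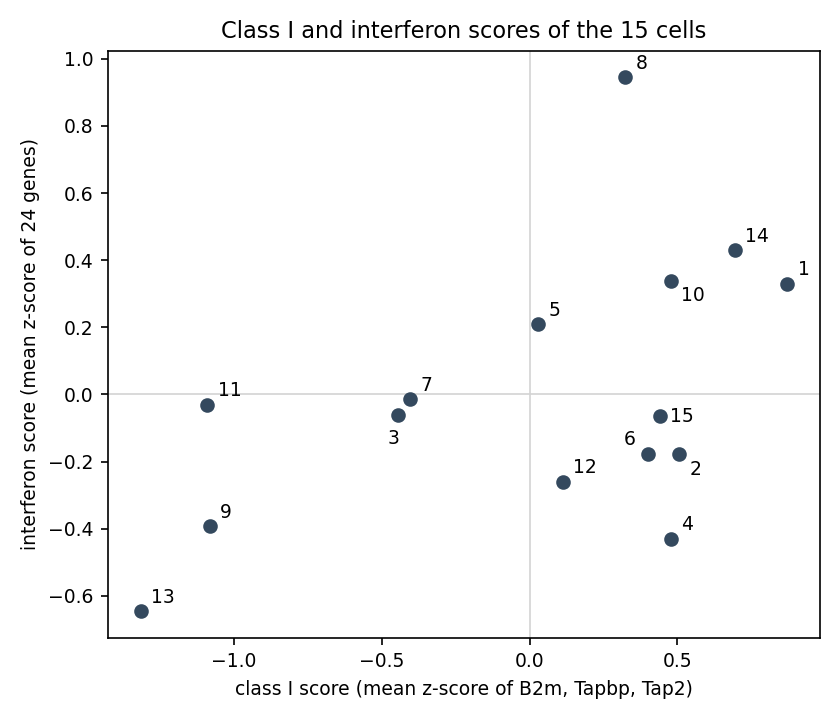
Class I score (mean z-score of B2m, Tapbp and Tap2) against interferon score (mean z-score of 24 genes), 1 numbered point per cell. Cells 13 and 9 lie at the lower left, cell 8 lies highest, and cells 2, 4, 6, 12 and 15 combine a class I score above 0 with an interferon score below 0.

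Within the class I side the parts were loosely tied. B2m had a rho of 0.02 with Tapbp and 0.01 with Tap2, so the light chain did not follow the loading genes over these cells. B2m had its highest rho with Gbp2 (0.79) and Gbp3 (0.69), then Ifitm1 (0.31), and its lowest with Isg20 (−0.39) and Oasl2 (−0.37). Of 66 other list genes Psmb8 had a rho of 0.79 with B2m. Gbp2 and Gbp3 were below 1 FPKM in 10 cells each, so most of their ranks rest on values near 0. Of these 66 genes, Serping1 (rho 0.73), Ifnar2, Scd1, Dpt and Xaf1 were most like the class I score. Serping1 (0.66), Uba7 (0.51), Xaf1 (0.49), Tlr3 (0.49) and Zbp1 (0.45) were most like the interferon score.

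Pairs of these genes that are neighbours on a chromosome had a higher median rho than the other pairs. The 17 pairs with starts within 1 Mb had a median rho of 0.47, from −0.62 for Ifi27 and Ifi27l2b to 0.93 for Gbp2 and Gbp3, against a median of 0.13 over the 334 other pairs. Several neighbours share words with other genes, such as Ifitm2 (55.5%) and Ifi204 (34.0%). Their likeness cannot be told apart from shared reads. The ranks of Gbp2 and Gbp3 rest mostly on values near 0. Neighbours over all rows were not compared. By family, the mean rho was 0.66 for the 3 Ifitm pairs, 0.44 for the 6 p200 pairs and 0.08 for the 10 pairs of transcription factors. It was 0.19 for the 6 sensor and effector pairs and 0.28 (median 0.00) for the 3 GTPase pairs. The 3 Ifi27 family pairs had a mean of −0.05 and a median of −0.39. Pairs of distant genes were also among the highest, with 0.81 for Ifitm2 and Ifi202b, 0.75 for Ifi204 and Ifi27l2a and 0.73 for Bst2 and Ifi203. Bst2 had the same rho with Irf2bp2, a name match without the function. The lowest pair was Irf2 and Gbp2b (−0.68).

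**Figure D5:**
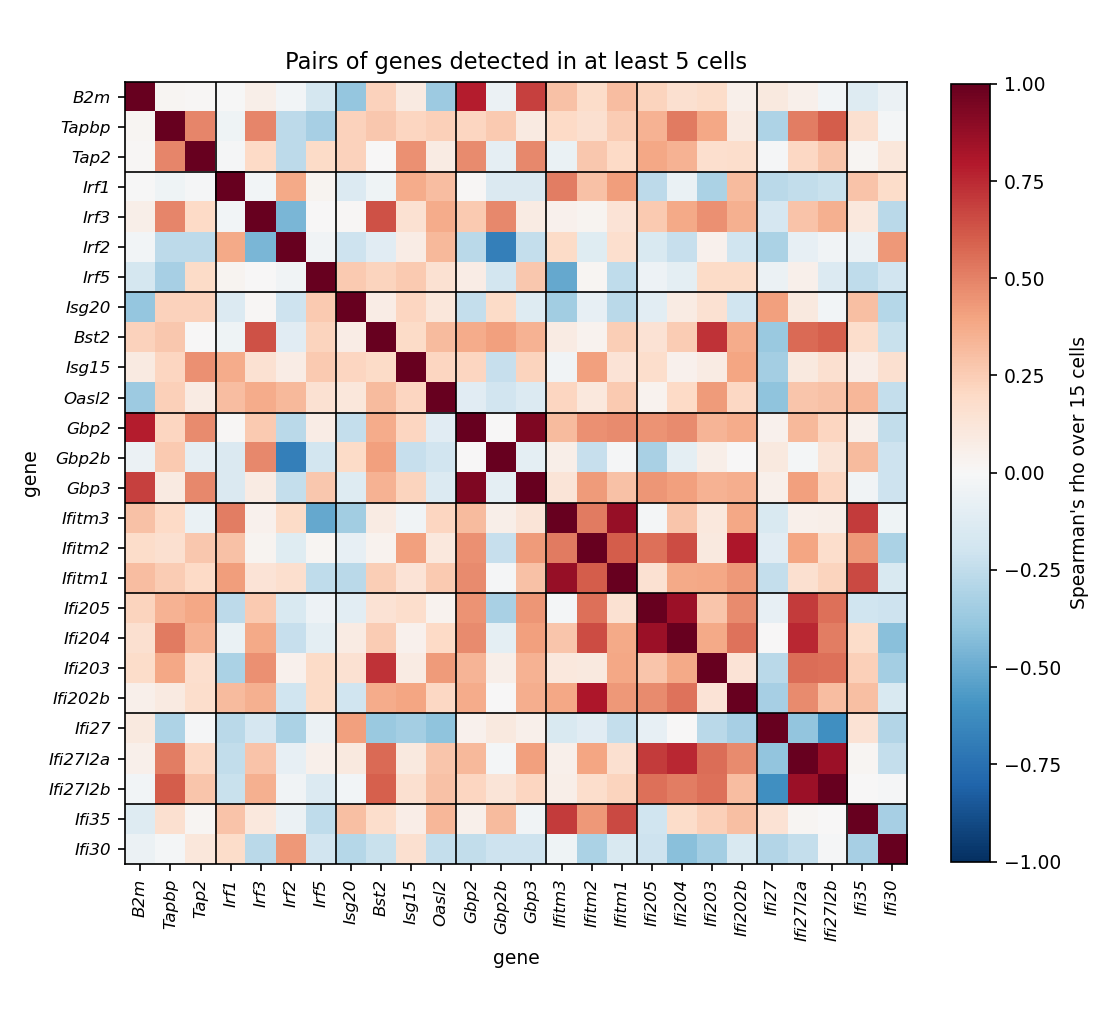
Spearman's rho over 15 cells for each pair of 26 of the 27 class I and interferon genes detected in at least 5 cells, from −1 (blue) to 1 (red), with the diagonal at 1 by construction and lines between roles. Red blocks lie at the Ifitm genes and the p200 genes, and B2m is red with Gbp2 (0.79) and Gbp3 (0.69).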

How the data were processed

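The authors' deposited table holds 1 column per cell, tied to its sample by the number that column and title share, and 18 empty columns were ignored. Per the submitters' processing notes, TopHat2 and Cufflinks were used on GRCm38. The sources used here give no version or setting for either. The table is named FPKM, but the deposited values are on a log2 scale: read as log2(FPKM + 1) they sum to 592948 FPKM per cell on average, and as natural logarithms to 12675749. Sorted columns differ by at most 0.0354 above a value of 0.2, so the values appear quantile-normalized. The scale and this step are inferred from the values and no label records them. No counts are given and depth is unknown.

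The 44 genes, roles and lists were chosen with earlier results of these data known. Roles were assigned by general knowledge after the rows were seen. Each value in every cell is given for named key genes and for members whose range exceeds the 90th percentile of the 200 rows nearest in median. Detection means 1 FPKM or more. Positions and transcript lengths are from GENCODE M21. Of 8446 rows 8431 matched the gene name table. Shared 31-base words were counted over all annotated transcripts. Correlations were computed in Python 3.11.15 with numpy 2.4.6 and scipy 1.17.1, and the code was tested on simulated data. A gene of the set that enters the counts and scores is not reported here.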

Additional observations from a re-analysis of the deposited data

How the results depend on the processing

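The 15 cells are 1 group without replicates, so depth and animal cannot be separated from cell. No paired analysis was possible because there is 1 group. Leaving out near-identical H2-Q and H2-T genes gave no value, since no such gene had a row. The count of 22 genes detected in at least 8 cells was 17 at 5 FPKM and 40 when any value above the cell's lowest counted. The class I level of 1.32 was 4.10 as a mean of means and 6.60 over rows detected in at least 8 cells, and the interferon level of 1.14 was 3.41 and 5.02.

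Leaving out each cell in turn, the class I level ran from 1.01 to 1.90 and the interferon level from 0.87 to 1.54. The mean rho ran from 0.07 to 0.27 within class I, from 0.08 (without cell 8) to 0.14 within the interferon genes, and from 0.12 to 0.17 between them. The rho of the 2 scores ran from 0.24 (without cell 13) to 0.49. Without cells 1, 11 and 14, those with most rows at the bottom value, the mean rho was −0.038 within class I, which reversed its sign, 0.11 between the sets and 0.17 for the scores. The cause was not tested. Pearson's r of the scores was 0.50. The mean rho within the interferon genes was 0.17 with all genes that vary, and 0.064 without cells 1 and 8, an alternative chosen after seeing the data. The further alternatives chosen then, tying values under 1 FPKM and leaving out genes with shared words, kept the sign of all 4 correlations.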
